A study of Mus musculus with 6 samples.

Results

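H19 is a long noncoding RNA of an imprinted gene, transcribed from the maternal chromosome. HNRNPA2B1, an RNA-binding protein of the hnRNP family, was mapped on it by eCLIP in C2C12 cells, mouse myoblasts that form myotubes when serum is lowered. In eCLIP, UV light fixes a protein to the RNA it touches, an antibody recovers that protein, and the RNA bound to it is read. Its members here were the listed peaks on the minus strand of chromosome 7 that lay wholly between 149761400 and 149764100 of the mm9 build, a window of 2700 nt. A gene list of the study places H19 inside this window. Of 3895 peaks in the 4 lists of immunoprecipitation (IP) libraries, 69 met this rule. H19 was chosen by the number and place of its peaks in these same lists, so both are a description and carry no test.

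The series held 6 samples, all from one cell line and one antibody against hnRNP A2/B1. C2C12 libraries A and B came from myoblasts grown with 20% fetal bovine serum. Differentiated C2C12 libraries A and B came, per the labels, from cells held for 8 to 10 days with 5% horse serum and ITS, an insulin, transferrin and selenium supplement. A shorter time stands in the methods of the study, which also name whole-cell lysis where the labels name isolated nuclei, and which account applies is not known here. Each state also had 1 input sample, which entered only through the authors' enrichment values. The study calls the replicates biologically independent. Read totals and the level of H19 RNA were not analysed here, so the depth behind a peak is unknown. More H19 RNA, a deeper library and more binding cannot be told apart in a number of peaks. Myotube markers were not checked, since a peak list gives no expression.

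H19 is known as the precursor of the microRNA miR-675 and as an RNA that is abundant in embryonic tissues, persists in skeletal muscle and accumulates as myoblasts differentiate. HNRNPA2B1 coats nascent transcripts, takes part in splicing and RNA transport, and is known to favour RNA that holds UAG. The sequences that give H19 its known product and its candidate contacts are therefore shown first, each 5′ to 3′. The mature forms of miR-675, from RefSeq (GRCm38.p6, minus strand of chromosome 7), have their seed, bases 2 to 8, in capitals and lie at 142577112 to 142577133 and at 142577078 to 142577099.
mmu-miR-675-5p: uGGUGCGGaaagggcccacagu
mmu-miR-675-3p: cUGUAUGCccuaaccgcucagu

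The longest GENCODE transcript of H19, on GRCm38, has 2286 nt in 5 exons, of which exon 1 takes 1315 nt and holds both mature forms. Stretches of it follow, counted from its 5′ end, with UAGGG or UAG in capitals. They were picked as the only UAGGG sites and, last, as the stretch around the closest run of UAGs.
H19, 208 to 212 in capitals: agggccugagcUAGGGuuggagaggaa
H19, 1167 to 1171 in capitals: gaaugaguuucUAGGGagggagguugg
H19, 483 to 512: gcacaUAGaaaggcaggaUAGuUAGcaaag

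UAG, read on the RNA strand, occurred 19 times in this transcript, or 8.31 times per 1000 nt. The median over 3828 lincRNA transcripts of at least 1000 nt was 10.6 per 1000 nt, and 99.9% of them held UAG. Only 20.2% of them had fewer UAGs per 1000 nt than H19. UAGGG, which contains UAG, occurred 2 times in H19, or 0.875 times per 1000 nt. The median over those transcripts was 0.482, and 72.7% of them were below H19. UAGGG was present in 60.2% of them. The H19 transcript was richer in G and C (55.8%) than the median of these transcripts (45.3%). Of the 19 UAGs, 15 lay in exon 1 (11.4 per 1000 nt) and 4 in the other exons (4.12 per 1000 nt). These letters and exons belong to GRCm38 and the peaks to mm9, so no peak was assigned to a UAG, an exon or miR-675.

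H19 carried peaks in all 4 libraries. C2C12 A listed 9 peaks on H19 and C2C12 B listed 3. Differentiated C2C12 A listed 35 and differentiated C2C12 B listed 22. The states did not overlap in this number. Nor did they in the number of all listed peaks. That was 594 and 591 in C2C12 A and B, and 1499 and 1211 in differentiated C2C12 A and B. On H19 the C2C12 mean was 6 ± 4.24 peaks and the differentiated C2C12 mean 28.5 ± 9.19 (SD, n = 2 each). The second is 4.75 times as many. The difference of 22.5 peaks was larger than either SD. No comparison of 2 libraries with 2 can go below p = 0.333 in an exact two-sided permutation test.

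The number of peaks overstates how much more RNA was covered, since H19 peaks in differentiated C2C12 were narrower and mostly touched a neighbour. Of the H19 peaks, 34 of 35 and 21 of 22 in differentiated C2C12 touched or overlapped another peak of their list, against 70.6% and 65.0% of all peaks in these lists. In C2C12 4 of 9 and 0 of 3 did, against 74.1% and 73.1% of all peaks. The median width of an H19 peak was 39 nt and 46 nt in C2C12 A and B, and 11 nt and 21 nt in differentiated C2C12 A and B. After touching peaks were merged, 7 and 3 H19 peaks were left for C2C12, with 7 and 5 for differentiated C2C12. The difference of the means then shrank to 1 peak, below either SD.

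Covered length does not depend on how a stretch is divided into peaks. Peaks covered 339 nt and 126 nt of H19 in C2C12 A and B, and 503 nt and 598 nt in differentiated C2C12 A and B. The means were 232.5 ± 151 nt and 550.5 ± 67.2 nt (SD, n = 2 each), a ratio of 2.37. The difference of 318 nt was larger than either SD. With every list cut to the 591 best peaks by −log10 p, a comparison added after the data were seen, the difference was 79 nt in length and 6.5 in number of peaks. In that cut, 554 and 444 of the 591 places in differentiated C2C12 A and B went to peaks listed at 400, where the lists stop. With full lists but without C2C12 B, the difference in length was 211.5 nt.

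H19 also took a larger share of the listed peaks after differentiation. It held 1.52% and 0.508% of the peaks of C2C12 A and B, and 2.33% and 1.82% of those of differentiated C2C12 A and B. The means differed by 1.06 percentage points, and by 0.561 without C2C12 B. Merging touching peaks in every list turned this order, with a mean of 2.04% in C2C12 and 0.968% in differentiated C2C12. Of all covered nucleotides in a list, H19 took 1.73% and 0.608% for C2C12 A and B, then 0.866% and 0.889% for differentiated C2C12 A and B. The state means of this share differed by less than the spread between the C2C12 replicates. A share of listed peaks also depends on the other loci in a list. Malat1, a locus described below, held 45.3% and 41.8% of the peaks of C2C12 A and B. It held 29.8% and 27.8% in differentiated C2C12 A and B. The mean share of Neat1, the other locus for comparison, was 6.41% in C2C12 and 9.66% in differentiated C2C12. The H19 share without Malat1 was not computed.

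**Figure D1:**
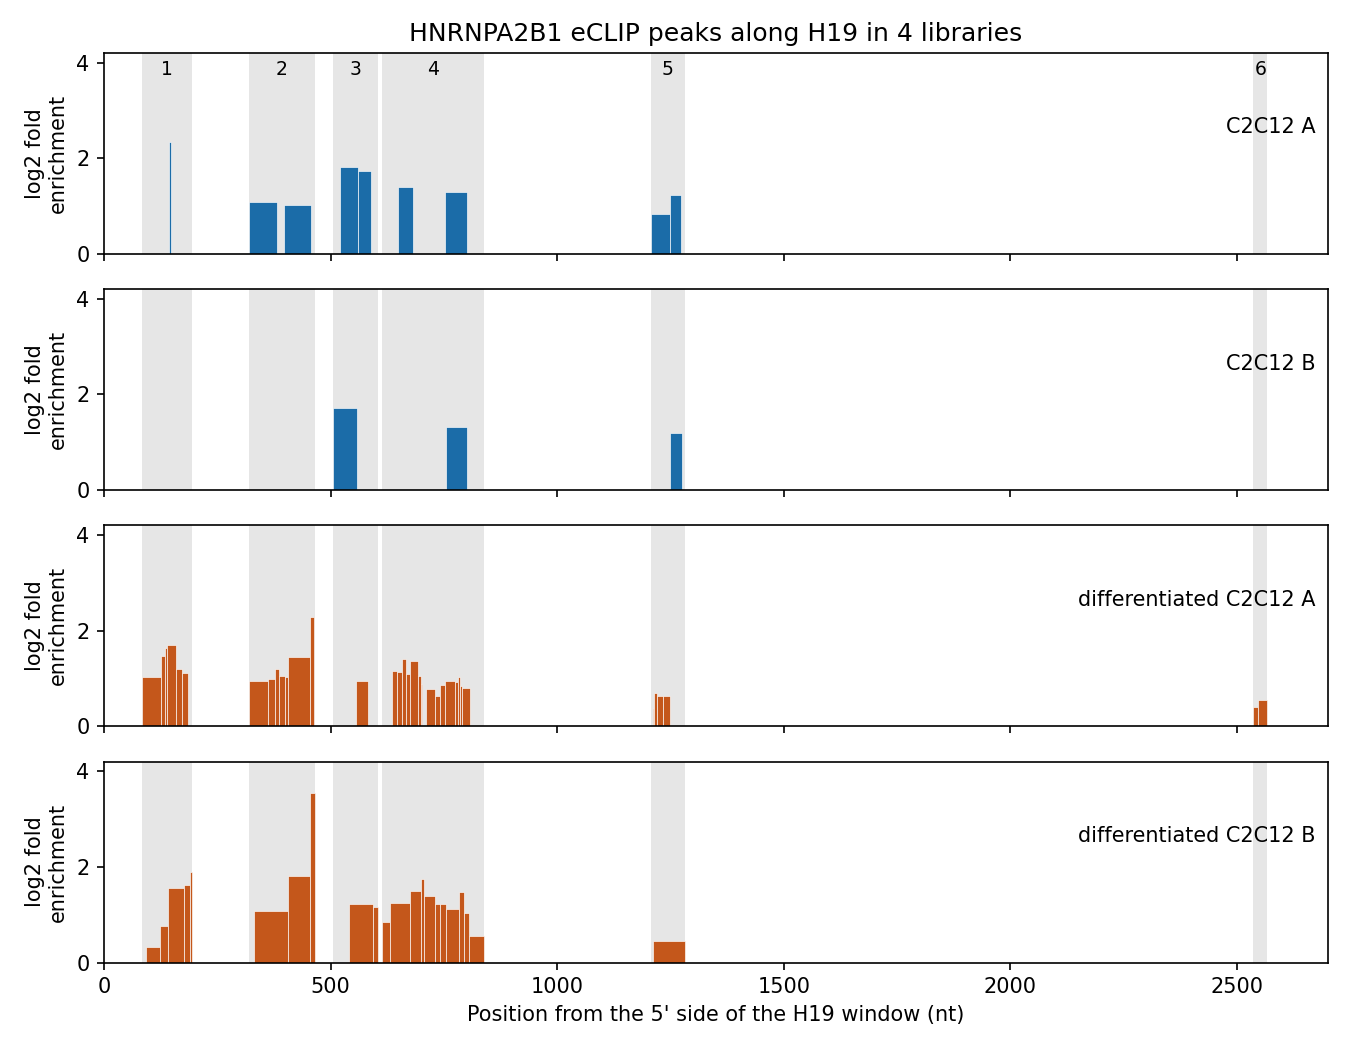
Peaks on H19 in each of the 4 libraries, plotted by position from the 5′ side of the 2700 nt window (x axis, nt) and by log2 fold enrichment of IP over input (y axis). Each bar is 1 listed peak at its true width, and grey bands mark the 6 numbered regions. All peaks but 2, those of region 6 in differentiated C2C12 A, lie between 85 and 1281 nt.

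Peaks from the 4 lists were joined where they touched or overlapped, which gave 6 regions on H19 with 685 nt in all. They are numbered from the 5′ side of the RNA, the high coordinate. Regions 1 to 5 lay between 149762820 and 149764016 on chromosome 7, a stretch of 1197 nt. The gaps between them were 127, 40, 7 and 368 nt. Region 6 came after a gap of 1255 nt. H19 binding was thus listed almost wholly in the 5′ part of the window, in both states.

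Region 1, from 149763908 to 149764016, was nearest to the 5′ end. In C2C12 A it held a single 5 nt peak with a log2 fold enrichment of 2.35, the highest value of H19 in that list. C2C12 B listed none. Differentiated C2C12 A and B each covered 101 nt of its 109 nt, with 6 and 5 peaks. Their log2 fold enrichments ran from 1.04 to 1.71 in A and from 0.326 to 1.89 in B. The peak with the highest −log10 p of H19 in differentiated C2C12 A, listed at 400 with a log2 fold enrichment of 1.48, lay here, from 149763966 to 149763974. The same place in differentiated C2C12 B was a peak with −log10 p of 21.3 and a log2 fold enrichment of 0.774.

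Region 2, from 149763637 to 149763780, held the strongest enrichment of H19 in differentiated C2C12. At its 3′ edge, differentiated C2C12 B listed a 9 nt peak from 149763637 to 149763645 with a log2 fold enrichment of 3.55 and a −log10 p of 400. Both were the highest of H19 in that list, the −log10 p tied with the next peak towards the 5′ end. Differentiated C2C12 A listed a 7 nt peak from 149763639 to 149763645 with a log2 fold enrichment of 2.28 and a −log10 p of 60.4. Both lists ended this peak at the same nucleotide. Next to it towards the 5′ end, the log2 fold enrichment fell to 1.46 in A and 1.80 in B. C2C12 A covered 121 nt of the region with peaks at 1.08 and 1.02, of which the first, from 149763719 to 149763780, had the highest −log10 p of H19 in that list, 7.09. The second ended at 149763645, so only 1 nt of the narrow 3′ peak was listed in C2C12 A. C2C12 B listed none.

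Region 3, from 149763496 to 149763596, had a peak in every library. The log2 fold enrichment reached 1.81 and 1.72 in C2C12 A and B. It reached 0.959 and 1.22 in differentiated C2C12 A and B. The C2C12 values were the higher ones and did not overlap the others. The C2C12 peaks here had a −log10 p of only 5.21 to 6.19, against 14.7 to 24.4 in differentiated C2C12. The places also differed, since the one peak of differentiated C2C12 A ran from 149763518 to 149763544. The log2 fold enrichment in C2C12 B, from 149763543 to 149763596, was the highest of H19 in that list. Covered lengths were 68 nt and 54 nt in C2C12, and 27 nt and 65 nt in differentiated C2C12.

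Region 4, from 149763262 to 149763488, was the longest, with 227 nt. Its covered length rose most in number of nucleotides, from 80 nt and 46 nt in C2C12 A and B to 165 nt and 227 nt in differentiated C2C12 A and B. It was split into 15 and 11 peaks in differentiated C2C12 and held 2 and 1 in C2C12. Its highest log2 fold enrichments were 1.4097 and 1.31 before differentiation and 1.4119 and 1.74 after it. The differentiated C2C12 values were the higher ones, the opposite order to regions 3 and 5, but the A libraries were nearly equal. The peak from 149763300 to 149763345 had the highest −log10 p of H19 in C2C12 B, 5.34.

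Region 5, from 149762820 to 149762893, again had a peak in every library, and its highest enrichments were higher in C2C12. They were 1.23 and 1.19 in C2C12 A and B. Differentiated C2C12 A and B reached 0.690 and 0.45, with no overlap. These maxima were not all at one place. Those of C2C12 lay from 149762829 to 149762852 in A and from 149762827 to 149762852 in B. Differentiated C2C12 A listed no peak there, only from 149762853 to 149762890, at 0.387 to 0.690. On that part C2C12 A listed a peak at 0.843. All C2C12 peaks of this region had a −log10 p of 5.01 to 5.34, near the lowest listed. Region 6, from 149761535 to 149761564, had peaks in 1 list, differentiated C2C12 A, as 2 peaks with log2 fold enrichments of 0.551 and 0.406. A region with no listed peak, in lists that reach down to a −log10 p of 5, may still have been bound.

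**Figure D2:**
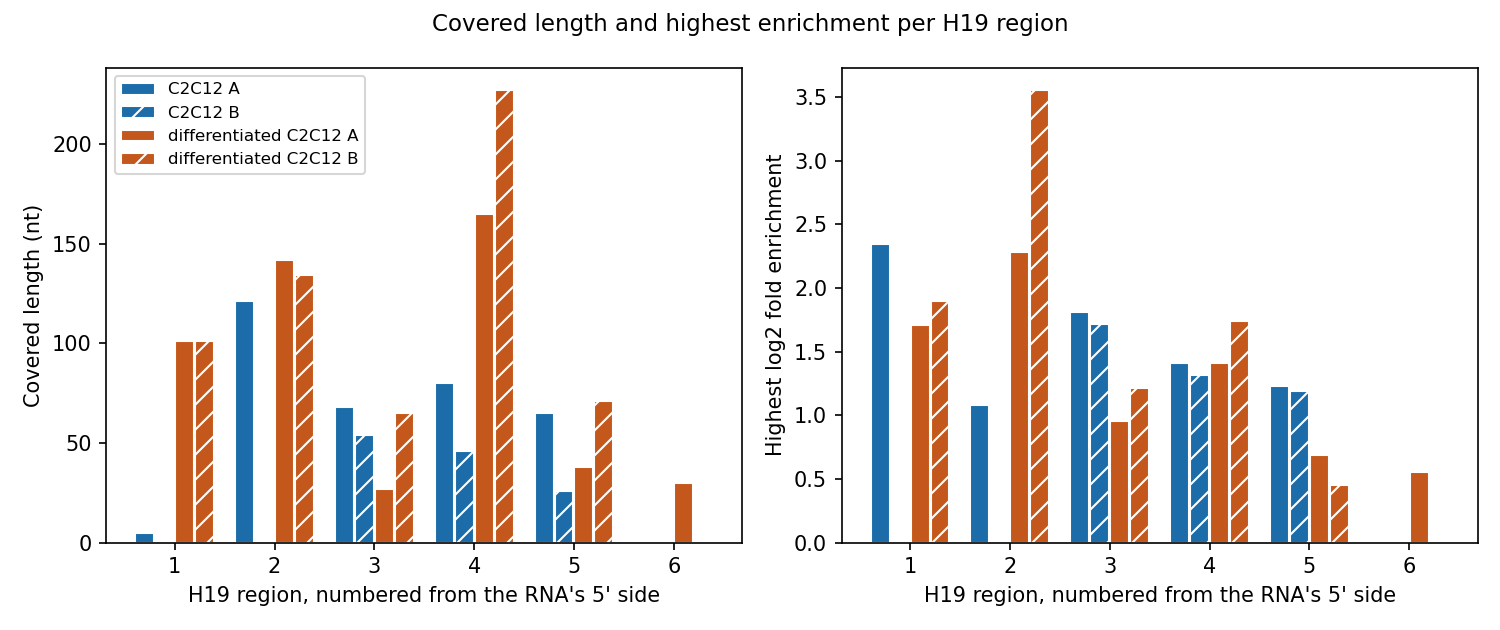
Left, covered length (nt), and right, highest log2 fold enrichment of any peak, in each of the 6 H19 regions (x axis) for C2C12 A and B and differentiated C2C12 A and B. Each bar is 1 library, and no bar means no listed peak. The highest values of a region need not lie at the same nucleotides. In regions 3 and 5 the bars on the right are higher in both C2C12 libraries, while region 2 holds the highest bars of differentiated C2C12, 2.28 and 3.55.

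Agreement between replicates on H19 depended on how an overlap was counted. In differentiated C2C12, 33 of 35 peaks of A overlapped a peak of B, and 19 of 22 peaks of B overlapped a peak of A. Over all peaks of these lists the share was 72.0% and 67.0%. Over both lists together, 91.2% of H19 peaks overlapped the other replicate after differentiation and 50% before it. When an overlap had to cover 50% of each peak, these shares were 49.1% and 50%, so the order did not hold. With equal list lengths they were 45.8% and 36.4%. In C2C12, 3 of 9 peaks of A overlapped a peak of B, and 3 of 3 the other way, where the lists as a whole gave 87.2% and 88.5%. Peaks of one RNA that lie end to end are not separate observations, so no interval is given. By nucleotide, the differentiated C2C12 replicates shared 455 nt, which was 90.5% of A and 76.1% of B. The C2C12 replicates shared 106 nt, which was 31.3% of A and 84.1% of B.

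All 3 C2C12 B peaks lay on peaks of C2C12 A with close values. In region 3 the paired log2 fold enrichments were 1.81 in A and 1.72 in B, in region 4 they were 1.30 and 1.31, and in region 5 they were 1.23 and 1.19. The C2C12 A peaks with no partner in B included both of region 2 and the one of region 1. In differentiated C2C12, 18 pairs of peaks were each other's best overlap, and B was higher than A in 13 of them. The difference, B minus A, ran from -0.71 to 1.27 on the log2 scale with a median of 0.25. Pearson's r over these 18 pairs was 0.68 and Spearman's rho 0.40, as a description, since neighbouring peaks share reads, libraries and perhaps input.

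The C2C12 peaks were set against those of the other state by position. All 9 and 3 H19 peaks of C2C12 A and B overlapped a peak of at least 1 differentiated C2C12 library, against 77.8% and 76.1% of all peaks in these lists. In the other direction 22 of 35 and 12 of 22 H19 peaks of differentiated C2C12 A and B overlapped a C2C12 peak, against 40.6% and 37.5% of all peaks. Of the 359 nt covered in any C2C12 library, 320 nt (89.1%) were covered in a differentiated C2C12 library, and these were 49.5% of the 646 nt covered there. Of the 106 nt in both C2C12 lists, 47 nt (44.3%) lay in both differentiated C2C12 lists. This share moved widely with the setting. It was 5.66% when peaks needed a log2 fold enrichment of 1 or more and 38.1% without C2C12 A. It was 82.1% without differentiated C2C12 A, and without C2C12 B 77.0% of the 339 nt of C2C12 A. All 4 libraries covered those 47 nt, which were 6.86% of the 685 nt.

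The authors' −log10 p, from the test of IP reads against input reads in a peak, was mostly higher on H19 after differentiation, although the ranges overlapped. In C2C12 A the H19 peaks ran from 5.02 to 7.09 (median 5.34), and in C2C12 B from 5.01 to 5.34 (median 5.21). In differentiated C2C12 A they ran from 5.63 to 400 (median 18.7), and in B from 5.34 to 400 (median 29.0). A −log10 p of at least 8, the significance line the study's methods name, was reached by 0 of 9 and 0 of 3 H19 peaks in C2C12, against 67.0% and 64.6% of all peaks. It was reached by 33 of 35 and 20 of 22 in differentiated C2C12, against 64.0% and 64.5% of all peaks. Every H19 peak of C2C12 therefore sat close to the lowest value the lists hold, 5. By −log10 p, H19 peaks ranked from 436 to 593 of 594 in C2C12 A and from 555 to 588 of 591 in C2C12 B. The value 400, at which the lists stop, was given to 1 and 2 H19 peaks in differentiated C2C12, against 37.0% and 36.7% of all peaks. It may not be a measured value, since the next highest values of these lists were 146 and 86.9. The shares over all peaks lean on Malat1. In differentiated C2C12 A and B, Malat1 held 446 of the 554 and 337 of the 444 peaks at 400. In C2C12 A and B it held 265 of the 398 and 237 of the 382 peaks with a −log10 p of at least 8. Shares without Malat1 were not computed.

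Enrichment over input was not higher on H19 after differentiation in the medians. The log2 fold enrichment of H19 peaks had a median of 1.30 and 1.31 in C2C12 A and B. The medians of differentiated C2C12 A and B were 1.03 and 1.22. The state means were 1.31 ± 0.0120 and 1.12 ± 0.136 (SD, n = 2 each), a difference of -0.18 that was larger than either SD and had C2C12 on the higher side. It was -0.09 without differentiated C2C12 A and -0.28 without differentiated C2C12 B. When peaks under 1 on this scale were dropped it was -0.05, smaller than the SD of 0.136. The lowest listed value on H19 was 0.843 and 1.19 in C2C12 A and B. In differentiated C2C12 A and B it was 0.387 and 0.326. H19 peaks under 0.843 were thus listed only in differentiated C2C12, so the medians rest on unlike ranges of listed values. In all 4 libraries the H19 median was below that of the whole list, which was 1.77 and 2.02 for C2C12, then 1.87 and 2.16 for differentiated C2C12. A log2 fold enrichment of at least 1, a doubling of IP over input, was reached by 8 of 9 and 3 of 3 H19 peaks in C2C12, against 79.6% and 82.6% of all peaks. It was reached by 18 of 35 and 17 of 22 in differentiated C2C12, against 85.7% and 88.5%. The highest value on H19 was 2.35 and 1.72 before differentiation and 2.28 and 3.55 after it, so the maxima overlapped.

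The same held nucleotide by nucleotide. Over the 271 nt covered in both C2C12 A and differentiated C2C12 A, the mean log2 fold enrichment was 1.20 in the first and 1.06 in the second. Over the 307 nt that C2C12 A shared with differentiated C2C12 B it was 1.25 and 1.14. C2C12 B shared 48 nt with differentiated C2C12 A (1.33 and 0.916) and 90 nt with differentiated C2C12 B (1.36 and 0.977). C2C12 was thus higher on average in each of the 4 pairings, with differences (differentiated C2C12 minus C2C12) of -0.42 to -0.11. These pairings reuse the same 4 libraries and count only places that passed the threshold in both, so they are a description.

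**Figure D3:**
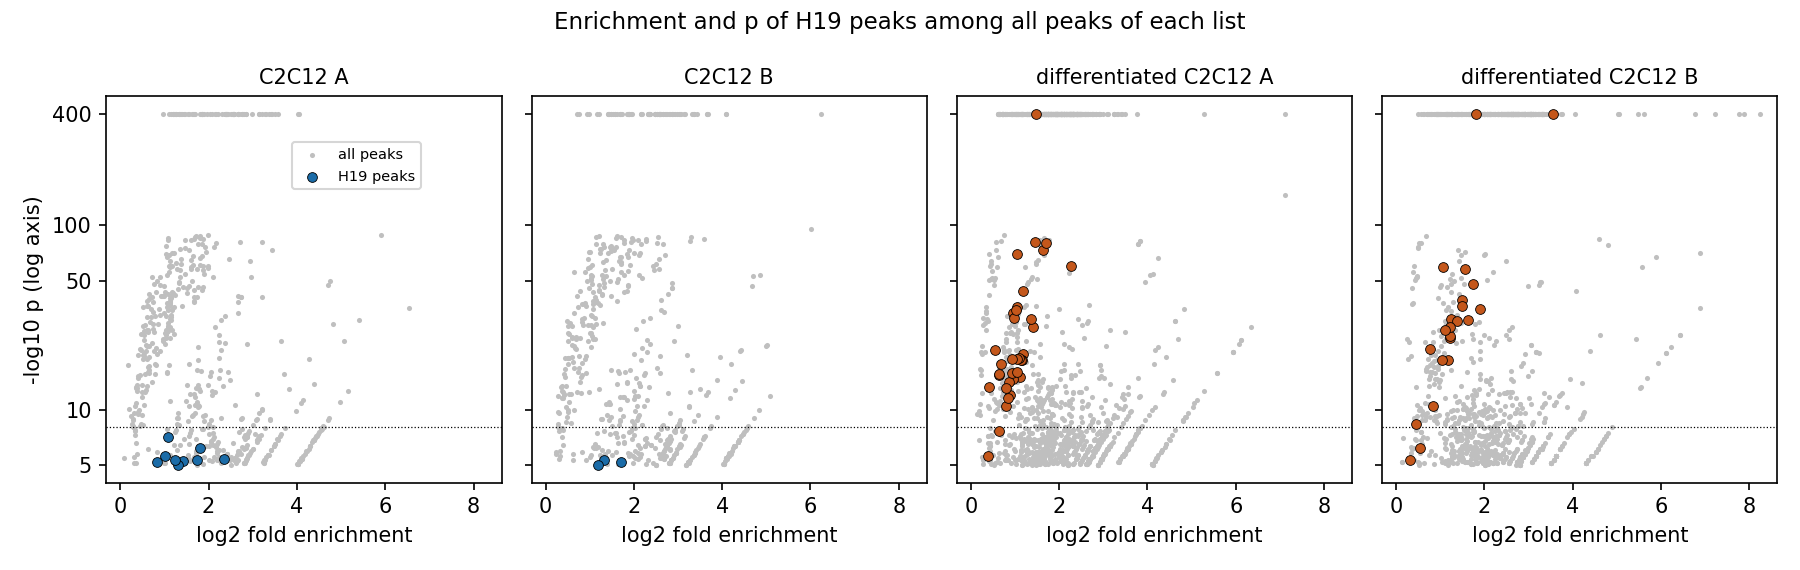
Log2 fold enrichment of IP over input (x axis) and −log10 p (y axis, log scale) of every peak in the 4 lists (grey) with the H19 peaks in colour. The dotted line marks a −log10 p of 8. All H19 peaks of C2C12 lie below the line at log2 fold enrichments of 0.843 to 2.35, and 53 of the 57 H19 peaks of differentiated C2C12 lie above it.

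Malat1 and Neat1, nuclear long noncoding RNAs found in splicing speckles and paraspeckles respectively, serve as loci for comparison. They were taken as the pair of peak-richest domains on the minus strand of chromosome 19, with peaks linked up to 10 kb apart. Among such domains, H19 shared the fifth place by number of peaks in C2C12 A with 1 other. It was 1 of 17 tied at place 22 in C2C12 B. It was at place 4 in both differentiated C2C12 libraries. The mean number of peaks was 4.75 times higher after differentiation on H19, 3.42 times on Neat1 and 1.52 times on Malat1, and the mean covered length 2.37, 2.70 and 1.24 times. These ratios were not tested against each other.

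H19 differed from both in its −log10 p in C2C12. Malat1 had a −log10 p of at least 8 in 265 of 269 and 237 of 247 C2C12 peaks, and Neat1 in 32 of 40 and 28 of 36, where H19 had none. Its density was between theirs over the stretch used here, which for H19 was 2482 nt. That stretch reached to region 6, which only differentiated C2C12 A listed. Regions 1 to 5 alone took 1197 nt, over which the H19 density would be higher and its place was not computed. Per 1000 nt of the stretch from the first to the last listed peak of a locus, peaks covered 93.7 ± 60.7 nt of H19 in C2C12 and 222 ± 27.1 nt in differentiated C2C12 (SD, n = 2 each). Malat1 had 363 ± 4.50 nt and 449 ± 27.2 nt, and Neat1 43.5 ± 0 nt and 118 ± 31.8 nt. The C2C12 replicates differed far more on H19, 339 nt against 126 nt, than on Neat1, where each covered 900 nt.

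The borders of the window decided no membership. No peak crossed an edge, and the plus strand held 0 peaks in the window in any library. The outermost peaks inside lay 134 nt from the low edge, with a log2 fold enrichment of 0.551 in differentiated C2C12 A, and 84 nt from the high edge, with 1.04 in the same list. The nearest peaks outside, on the same strand, were at least 28502354 nt away on the low side, with log2 fold enrichments of 2.01 to 3.20 over the 4 lists, and none was listed on the high side. No H19 peak had the same values in any 2 lists.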

How the data were processed

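Peak lists of 4 eCLIP IP libraries were analysed. The authors removed adapters and reads from repeats, aligned to mm9 with STAR, removed PCR duplicates, called peaks with CLIPper and scored each against size-matched input. The deposited lists, without a header, give position, the authors' −log10 p and the authors' log2 fold enrichment of IP over size-matched input, which the authors computed per peak and replicate. The study's methods name a Bonferroni-corrected Fisher's exact test with significance at a −log10 p of 8, and an input for each replicate. The deposited lists reach down to 5, and the series holds 1 input sample per state, so whether the deposited −log10 p is corrected, and whether replicates share an input, could not be settled. A peak in an abundant RNA or a deep library passes more easily. Read counts and depth were not analysed here.

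The lists are not on GRCm38: the largest peak end on chromosome 7, 149764016, exceeds its length there, 145441459. No coordinate was converted. H19, the loci for comparison and the regions and peaks named were chosen with earlier results of these data known. Named were the regions with a peak in at least 2 lists, region 6 besides, which was added after its values were seen, and per list the H19 peaks with the highest −log10 p and highest log2 fold enrichment. A peak overlapped another when they shared at least 1 nt on one strand. Overlap counts equalled those of bedtools 2.31.1. The overlap function was also run on the 243, 251, 652 and 580 merged peaks of the lists, against copies with part moved far away. It classified 100% correctly, but this check held no partial overlaps. Positions count from 1. SD is over 2 libraries. Alternatives were a −log10 p of at least 8, a log2 fold enrichment of at least 1, other windows, merged peaks, other overlap rules, medians over nucleotides, equal list lengths and leaving out each library. Python 3.11.15, pandas 2.3.3, numpy 2.4.6 and matplotlib 3.10.9 were used.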

Additional observations from a re-analysis of the deposited data

How the results depend on the processing

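The differences between the states in peak number, covered length and median log2 fold enrichment kept their sign under every alternative that gave a value. The share of listed peaks and the replicate overlap did not. The share, 1.06 percentage points higher in differentiated C2C12, reversed to -1.07 after merging touching peaks. It was 3.0 at a −log10 p of at least 8, 0.340 with peaks enriched at least 1 on the log2 scale, and 0.561 to 1.57 with one library left out. The difference in peak number, 22.5, was 12 with that enrichment minimum, 1 after merging and 6.5 with equal list lengths, and 16 to 29 with one library left out. The difference in covered length, 318 nt, was 511 nt at a −log10 p of at least 8, 129 nt with the enrichment minimum and 79 nt with equal list lengths, and 211.5 to 424.5 nt with one library left out. The difference in median log2 fold enrichment was -0.18, ran from -0.28 to -0.09 with one library left out and was -0.05 with the enrichment minimum.

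Replicate overlap, pooled over both directions, was 50% in C2C12 and 91.2% in differentiated C2C12. It was 83.3% in C2C12 when gaps of up to 100 nt counted. In differentiated C2C12 it was 96.5% with such gaps, 68.6% with the enrichment minimum, 49.1% with reciprocal overlap of 50% (50% in C2C12, so the order turned) and 45.8% with equal list lengths (36.4% in C2C12). The share of the common C2C12 nucleotides found in both differentiated C2C12 lists, 44.3%, was 5.66% with the enrichment minimum and 38.1% to 82.1% with one library left out. At a −log10 p of at least 8 C2C12 had no H19 peak, so enrichment, C2C12 overlap and shared nucleotides could not be computed there. Other windows changed no value. The causes were not tested. The equal lengths were an alternative added after the data were seen. No paired analysis was possible because the results come from no fitted model and the labels tie no replicate letter to a shared batch.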
